A study of Mus musculus with 6 samples.

Results

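The genes described here encode the chaperones of the endoplasmic reticulum (ER), its disulfide-forming enzymes, its protein translocation and degradation machinery, and the sensors of the unfolded protein response (UPR). They were chosen by name, as 34 gene symbols matched to the gene-name column of the deposited count table, and all 34 were found among its 35275 gene rows. Of these, 33 passed the filter on low counts, and Derl3, a derlin of ER-associated degradation, did not. The samples were cultures of primary microglia, macrophages native to the brain, of strain C57/BL6, with 3 control samples and 3 samples co-cultured with regulatory T cells (Tregs). The Tregs were first kept for 24 hours in inserts over brain slices taken 5 days after transient middle cerebral artery occlusion (tMCAO), a model of stroke, and the inserts were then placed over the microglia for 2 days. No step with slices or an empty insert is recorded for the controls, so an effect of the Tregs cannot be told apart from one of the slices or the insert. The labels give no age, sex or number of animals, and they do not say that replicates were separate cultures. The p values therefore set the group difference against the scatter among these samples only, and that scatter may be technical.

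Secreted and membrane proteins enter the ER through the Sec61 translocon, fold with help of the chaperone BiP and of lectin chaperones, and gain disulfide bonds from the protein disulfide isomerases. Proteins that fail to fold are drawn back to the cytosol and degraded by the proteasome, a route called ER-associated degradation (ERAD). When unfolded proteins build up, the sensors IRE1, ATF6 and PERK start the UPR: IRE1 splices the mRNA of the transcription factor XBP1, ATF6 is cut to release a transcription factor, and PERK slows translation and favours ATF4. ATF6 and spliced XBP1 raise chaperone and ERAD genes through a promoter motif, the ER stress response element (ERSE). In macrophages the ER also loads MHC class I molecules, a step in which calreticulin and Pdia3 take part. The deposited counts are sums per gene, so they do not separate the spliced from the unspliced Xbp1 mRNA, nor do they report splicing, cleavage or phosphorylation of the sensors.

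The promoters of the members were read to show which of them carry the motif through which ATF6 and XBP1 are known to act. Promoters of 29 members, from 250 bases before to 50 bases after the start of the gene, were held in the RefSeq table of build GRCm38.p6. The ERSE, CCAAT followed after 9 bases by CCACG, was searched on both strands and was found in 10 of these 29 members (34.5%), against 39 of all 32851 promoters (0.119%). The ERSE-II, ATTGG followed after 1 base by CCACG, was found in 2 members, Dnajb11 and Herpud1, against 12 of all promoters (0.0365%). The UPR element and the C/EBP-ATF element were searched as the exact letters TGACGTGG and TGATGNAAT. Neither string was in the member promoters, and they were in 0.676% and 0.965% of all promoters. Variants that differ from any of these motifs in a fixed letter were not searched, so other forms of the elements may be present. No motif overlapped another. The counts over all promoters include the promoters of the members. The ERSE is already known from genes of this kind, so its contrast with all promoters is a description and not an enrichment found here. A match is a description of these letters and not evidence of binding, and a promoter without a match says only that the letters are not in this window. The matches are shown with 10 flanking bases, on the strand that reads the motif forward, with the fixed letters of the motif in capitals. The ERSE matches come first, then the ERSE-II matches.
Hspa5 (chr2:34772015-34772053, plus strand): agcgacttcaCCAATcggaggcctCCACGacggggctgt
Hsp90b1 (chr10:86705628-86705666, minus strand): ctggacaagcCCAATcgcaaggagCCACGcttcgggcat
Hsp90b1 (chr10:86705523-86705561, plus strand): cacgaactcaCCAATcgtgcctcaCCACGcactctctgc
Dnajc3 (chr14:118937817-118937855, plus strand): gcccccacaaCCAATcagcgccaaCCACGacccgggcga
Calr (chr8:84847065-84847103, plus strand): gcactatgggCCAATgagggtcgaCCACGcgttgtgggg
Canx (chr11:50325790-50325828, minus strand): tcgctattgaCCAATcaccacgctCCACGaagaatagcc
Pdia6 (chr12:17266481-17266519, plus strand): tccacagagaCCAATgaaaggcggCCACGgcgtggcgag
Ero1lb (chr13:12565672-12565710, minus strand): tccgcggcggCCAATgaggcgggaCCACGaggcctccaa
Creld2 (chr15:88819510-88819548, minus strand): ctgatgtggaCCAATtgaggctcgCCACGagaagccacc
Syvn1 (chr19:6046522-6046560, plus strand): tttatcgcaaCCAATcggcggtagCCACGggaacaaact
Derl3 (chr10:75893232-75893270, minus strand): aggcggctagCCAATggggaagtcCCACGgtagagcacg
Dnajb11 (chr16:22857842-22857872, plus strand): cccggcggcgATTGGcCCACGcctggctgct
Herpud1 (chr8:94386367-94386397, plus strand): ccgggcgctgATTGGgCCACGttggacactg

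Hsp90b1, the ER member of the HSP90 family, was the member with 2 exact ERSE matches, and near matches were not counted in any member. In Hspa5 the match began 65 bases before the RefSeq start, and in Herpud1 the ERSE-II began 52 bases before it, while that of Dnajb11 lay inside the transcript, 7 to 17 bases after the start. The whole promoter windows of Hspa5 and Herpud1 are given because the first gene showed no detectable change and the second had the largest fall of the members, with the whole motif in capitals.
Hspa5 (chr2:34771840-34772139, plus strand): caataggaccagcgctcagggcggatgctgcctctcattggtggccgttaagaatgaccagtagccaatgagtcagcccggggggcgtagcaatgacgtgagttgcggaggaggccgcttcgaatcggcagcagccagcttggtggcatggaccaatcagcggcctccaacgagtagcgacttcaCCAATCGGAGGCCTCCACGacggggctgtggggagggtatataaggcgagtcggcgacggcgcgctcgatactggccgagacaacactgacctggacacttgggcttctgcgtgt
Herpud1 (chr8:94386179-94386478, plus strand): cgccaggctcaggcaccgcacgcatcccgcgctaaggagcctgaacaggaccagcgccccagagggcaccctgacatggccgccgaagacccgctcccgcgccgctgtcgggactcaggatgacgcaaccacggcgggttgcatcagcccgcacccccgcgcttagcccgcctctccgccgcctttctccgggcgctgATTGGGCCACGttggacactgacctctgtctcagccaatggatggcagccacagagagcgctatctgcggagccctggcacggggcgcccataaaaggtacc

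The libraries held between 16972758 and 22084542 counts, and all 6 were used. The mitochondrial share of counts was 1.32% to 1.38% in the controls and 0.636% to 0.772% after co-culture, and the share of ribosomal protein genes was 1.87% to 2.09% and 1.15% to 1.34%. Both shares moved with the groups, and their part in the results below was not tested. All 8 microglia markers were detected, led by Csf1r and C1qa, with a summed level of 7310 to 7880 CPM in the controls and 5610 to 6240 CPM after co-culture, 3 of them higher and 4 lower, although P2ry12 and Tmem119 were low (9.07 and 7.6 CPM in the controls). The 9 monocyte and border macrophage markers, led by Ms4a7 and Mrc1, summed to 713 to 753 CPM in the controls and 1230 to 1320 CPM after co-culture, and 4 of the 5 tested rose. The 9 T cell markers, led by Cd4 and Foxp3, summed to 5.83 to 6.97 CPM in the controls and 8.75 to 9.35 CPM after co-culture, and Cd2 and Ctla4 had 0 counts in every library. Cd4 rose from 2.53 ± 0.726 to 6.41 ± 0.178 CPM (n = 3 per group, mean ± SD; adjusted p = 2.14e-07 with edgeR), while Foxp3, the defining factor of Tregs, fell from 3.22 ± 0.313 to 1.63 ± 0.194 CPM (adjusted p = 4.29e-04), so the higher sum was that of Cd4. The 6 markers of B and plasma cells that were in the table, led by Cd79b and Ms4a1, summed to 1.04 to 1.28 CPM in the controls and 1.09 to 2.1 CPM after co-culture. The 5 astrocyte markers, led by Aldh1l1 and Gfap, summed to 29 to 35 CPM in the controls and 29.4 to 36.6 CPM after co-culture. That sum joins opposite changes, since Aldh1l1 rose 1.77-fold (adjusted p = 7.37e-08), while Aqp4 and S100b, named after their values were seen, fell 3.68-fold and 6.39-fold (adjusted p = 1.42e-11 and 6.34e-06). The 5 neutrophil markers, of which 4 had 0 counts throughout, summed to at most 0.577 CPM in any sample and were led by S100a8. The 4 neuronal markers, led by Tubb3 and Rbfox3, summed to 4.56 to 6.19 CPM in the controls and 5.94 to 6.25 CPM after co-culture, and the 5 fibroblast and endothelial markers, led by Col1a1 and Pecam1, to 31.7 to 38.9 CPM in the controls and 35.9 to 48.2 CPM after co-culture, with 2 of the 4 tested higher. In these bulk samples, fewer cells of a type and less RNA per cell cannot be told apart, and the part of other cells in the results was not tested.

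The ER members changed little and in both directions after Treg co-culture. The disulfide isomerases Pdia4 and P4hb, the chaperone partners Hyou1 and Dnajb11, the sensor Ern1 and its target Xbp1 rose by 1.23-fold to 1.41-fold. The ERAD scaffold Herpud1 fell 1.63-fold, and the chaperone partners Sdf2l1 and Dnajc3 and the folding sensor Uggt1 fell 1.21-fold to 1.36-fold. Hspa5, which encodes BiP, showed no detectable change. Of the 33 members tested, 8 rose, 12 fell and 13 did not pass an adjusted p of 0.05 with edgeR's quasi-likelihood test. Over all 13274 genes tested, 50.9% were called, 25.9% as higher and 25% as lower, so the 60.6% of members called were close to that background, and among the 7606 genes at least as abundant as the lowest tested member 61.6% were called. The median log2 fold change of the members was 0.0113, against -0.01 over all genes tested, and it became -0.061 with upper-quartile scaling, so no direction is given for the members together. Their median absolute log2 fold change was 0.16, against 0.28 over all genes tested and 0.22 over the genes at least as abundant. That last set starts at the level of the lowest tested member, so it is not matched to the members in level.

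Levels in this comparison are CPM, read counts relative to library size scaled by the trimmed mean of M values (TMM), and differences are log2 fold changes of co-cultured minus control samples with the standard error (SE) of the fit. The members were measured precisely, with a median SE of 0.052 against 0.0934 over all genes tested, and their median level was 145 CPM, against 18.6 CPM. For 29 of 33 members the 95% interval of the fold change lay within 1.5-fold in either direction, which held for 53.7% of all genes tested and 76.2% of those at least as abundant. Tested against a 1.5-fold change, 0 of 33 members were called, against 11.3% of all genes tested. The groups did not overlap at 20 of the 33 members, against 57.2% of all genes tested. Of the 20 members called, 12 (7 higher, 5 lower) were called under all 16 alternatives that tested for any change, and the other 8 (1 higher, 7 lower) lost the call under at least 1 of them. A second deposited count sheet, 1 of the 16, has equal counts for 35142 of 35161 shared gene names, so its agreement is no separate evidence. Exons of 9 members (Hsp90b1, Dnajb9, Pdia3, Pdia4, Pdia6, Manf, Syvn1, Derl2 and Sec61a1) overlap exons of another annotated gene, so their counts may have gained or lost reads there. No member that was called took the opposite sign under any alternative.

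**Figure D1:**
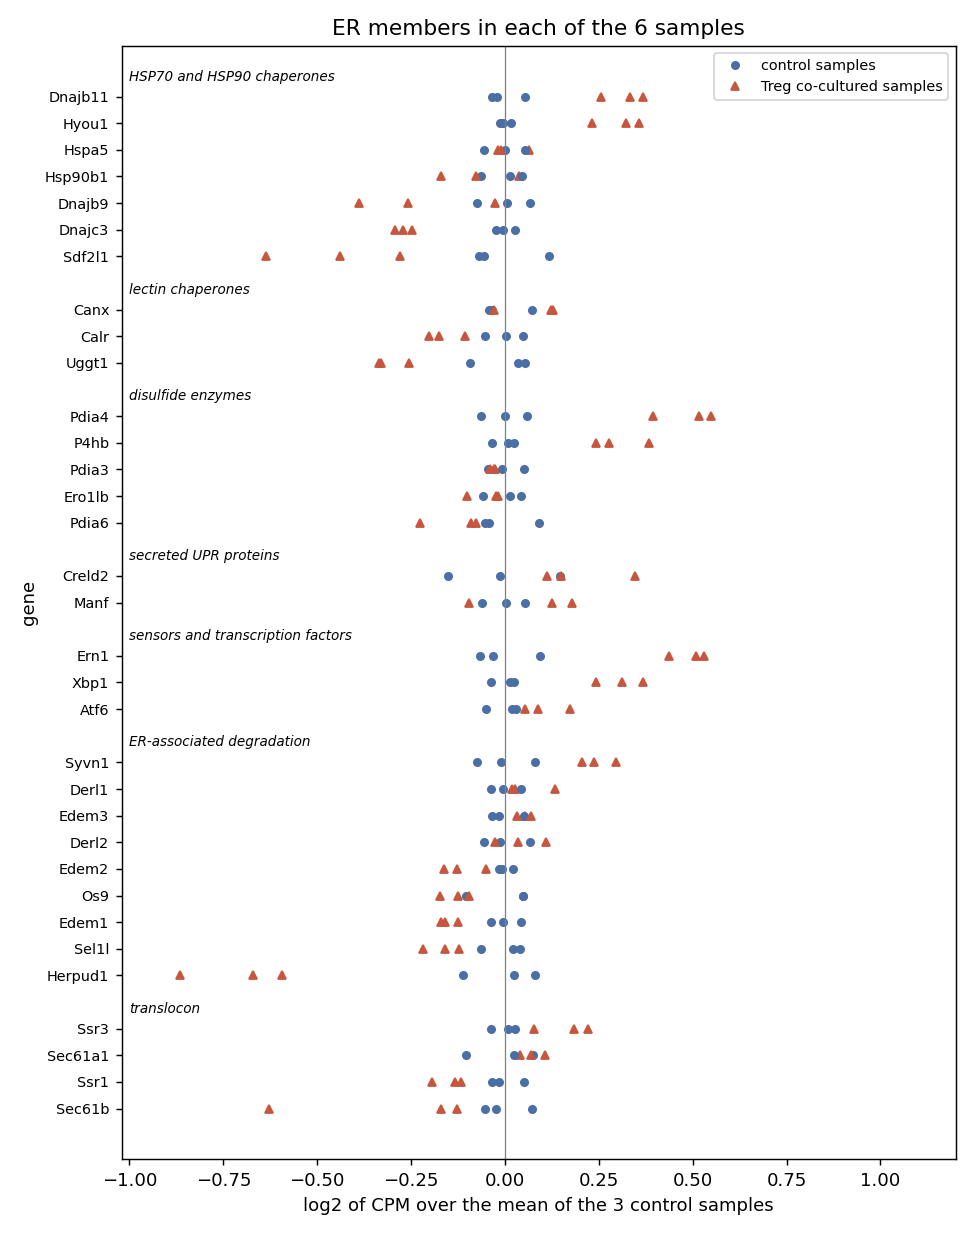
Each point is 1 sample, placed at the log2 of its CPM over the mean of the 3 control samples, for the 33 tested members by functional group (circles, controls; triangles, Treg co-cultured). The triangles of Pdia4 and Ern1 lie to the right of all their circles and those of Herpud1 to the left, while those of Hspa5 and Pdia3 overlap with their circles.

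In the BiP chaperone system calls went both ways, as they did over all genes tested (25.9% higher, 25% lower). BiP is an HSP70 chaperone that binds unfolded chains in the ER, and its gene Hspa5 (chr2:34771970-34777547, plus strand) had 638, 664 and 689 CPM in the controls and 693, 659 and 655 CPM after co-culture. The groups overlapped and the difference was 0.011 ± 0.05 SE on the log2 scale, with a 95% interval of -0.089 to 0.11 (adjusted p = 0.872). Hsp90b1, which encodes GRP94, had 358, 377 and 386 CPM in the controls and 383, 354 and 332 CPM after co-culture, again overlapping (log2 fold change -0.067 ± 0.052 SE, adjusted p = 0.299). It passed the threshold as lower with upper-quartile scaling (adjusted p = 0.025) and with library totals alone (0.0297), the 16 alternatives spanning 0.025 to 0.791.

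The partners of BiP moved in opposite directions. Hyou1, a large HSP70-like protein that exchanges nucleotide on BiP, had 183, 179.5 and 181 CPM in the controls and 232, 227 and 213 CPM after co-culture, and every co-cultured sample was above every control (log2 fold change 0.30 ± 0.05 SE, adjusted p = 4.28e-06). Dnajb11, an ER J-domain protein that hands substrates to BiP, had 117, 116 and 123 CPM in the controls and 153, 149.5 and 142 CPM after co-culture, again without overlap (log2 fold change 0.32 ± 0.052 SE, adjusted p = 3.92e-06). The other partners were lower after co-culture. Dnajc3, a J-domain protein known as p58IPK that restrains PERK, had 115, 111 and 113 CPM in the controls and 95.1, 92.2 and 93.6 CPM after co-culture, and all its co-cultured samples were below the controls (log2 fold change -0.27 ± 0.052 SE, adjusted p = 4.8e-05). Sdf2l1, which keeps BiP and its J-domain partners together, had 67.9, 68.7 and 77.3 CPM in the controls and 52.6, 58.8 and 45.9 CPM after co-culture, also without overlap (log2 fold change -0.44 ± 0.075 SE, adjusted p = 3.46e-05). Dnajb9, known as ERdj4, a J-domain protein that restrains IRE1, had 25.3, 26.7 and 27.9 CPM in the controls and 20.3, 26.1 and 22.3 CPM after co-culture, and co-cultured replicate 2 lay within the controls (log2 fold change -0.22 ± 0.085 SE, adjusted p = 0.0337). The call of Dnajb9 was lost with DESeq2 (adjusted p = 0.123) and without control replicate 2 (0.0728), control replicate 3 (0.129), co-cultured replicate 1 (0.235) or co-cultured replicate 3 (0.0891), the 16 alternatives spanning 0.00432 to 0.235. In all, 2 of the 7 members of this group rose, 3 fell and 2 were not called. The 71.4% called stands beside 50.9% of all genes tested and 61.6% of those at least as abundant as the lowest tested member. Groups without overlap were found at 57.2% of all genes tested.

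Of the lectin chaperone cycle, which holds glycoproteins until they fold, 2 of 3 members fell. A fall was called at 25% of all genes tested, and 3 members are too few to set against that share. Calr, which encodes the soluble lectin calreticulin (chr8:84841850-84846934, minus strand), had 898, 962 and 934 CPM in the controls and 825, 809 and 866 CPM after co-culture, and all co-cultured samples were lower (log2 fold change -0.16 ± 0.05 SE, adjusted p = 0.00785). Without control replicate 2, Calr was not called (adjusted p = 0.0678, the 16 alternatives spanned 2.06e-04 to 0.0678). Uggt1, which tags misfolded glycoproteins for another round of folding, had 225, 222 and 203 CPM in the controls and 181, 172 and 173 CPM after co-culture, without overlap (log2 fold change -0.31 ± 0.051 SE, adjusted p = 6.37e-06). Canx, which encodes the membrane-bound lectin calnexin, had 484, 524 and 486 CPM in the controls and 544, 542 and 488 CPM after co-culture, with overlapping groups (log2 fold change 0.076 ± 0.052 SE, 95% interval -0.03 to 0.18, adjusted p = 0.231).

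Among the disulfide enzymes, 2 of 5 rose, 1 fell and 2 were not called. The 60% called is near the 50.9% of all genes tested and the 61.6% of those at least as abundant as the lowest tested member. Pdia4, also known as ERp72 (chr6:47796141-47813430, minus strand), had 115, 126 and 121 CPM in the controls and 176, 172 and 158 CPM after co-culture. Its groups were well apart, a 1.4-fold rise (log2 fold change 0.49 ± 0.053 SE, adjusted p = 2.42e-09). P4hb, the founding protein disulfide isomerase, had 416, 428 and 433 CPM in the controls and 555, 504 and 516 CPM after co-culture, and its groups did not overlap (log2 fold change 0.30 ± 0.05 SE, adjusted p = 4.9e-06). Pdia6, also known as P5, had 161, 159.8 and 177 CPM in the controls and 156, 157 and 142 CPM after co-culture, a difference in the other direction and close to the threshold (log2 fold change -0.13 ± 0.054 SE, adjusted p = 0.045). The call of Pdia6 was lost with size-factor scaling (adjusted p = 0.0523), with DESeq2 (0.0992) and without control replicate 3 (0.215), co-cultured replicate 1 (0.0517) or co-cultured replicate 3 (0.225), the 16 alternatives spanning 0.00221 to 0.225. Pdia3, known as ERp57, which works with calreticulin and calnexin, had 456, 468 and 487 CPM in the controls and 458, 461 and 461 CPM after co-culture, and its groups overlapped (log2 fold change -0.032 ± 0.048 SE, 95% interval -0.13 to 0.066, adjusted p = 0.614). Ero1lb, which reoxidizes the isomerases and is now named Ero1b, stayed between 31.3 and 34.6 CPM in all 6 samples (adjusted p = 0.587).

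**Figure D2:**
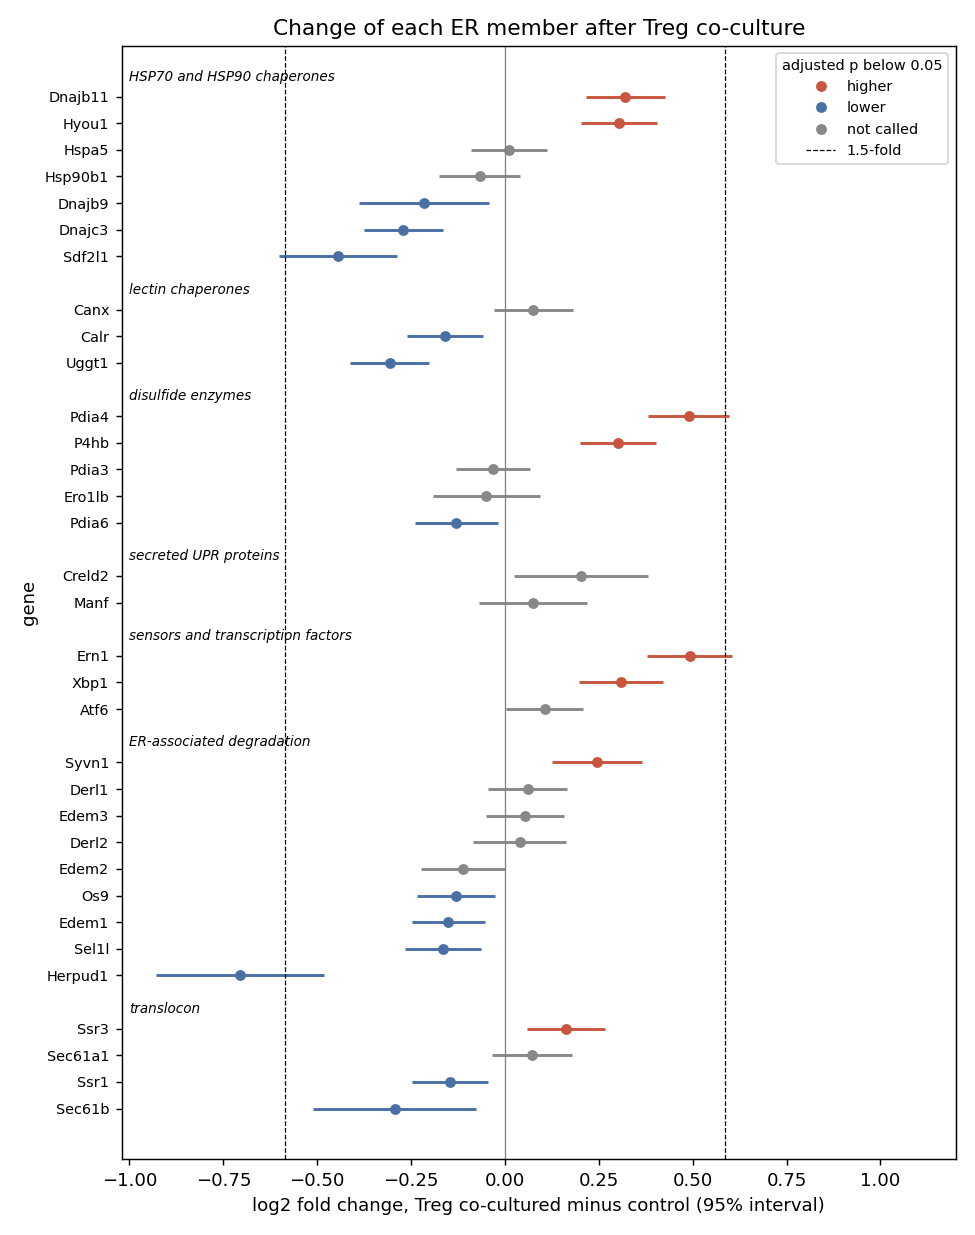
Points give the log2 fold change, co-cultured minus control, of the 33 tested members and bars its 95% interval; colours give the call at an adjusted p of 0.05 and dashed lines mark a 1.5-fold change. Herpud1 at -0.71 is the point beyond a dashed line, and its bar and those of Sdf2l1, Pdia4 and Ern1 cross one.

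Of the sensors and transcription factors, Ern1 and Xbp1 rose and Atf6 was not called. For scale, 25.9% of all genes tested rose. Ern1, which encodes the sensor kinase and nuclease IRE1 alpha (chr11:106394650-106487852, minus strand), had 85.7, 78.5 and 76.6 CPM in the controls and 116, 114 and 109 CPM after co-culture, a 1.41-fold rise without overlap (log2 fold change 0.49 ± 0.056 SE, adjusted p = 4.87e-09). Xbp1, whose mRNA IRE1 splices, had 80.1, 83.6 and 83 CPM in the controls and 106, 102 and 97.3 CPM after co-culture, also without overlap (log2 fold change 0.31 ± 0.054 SE, adjusted p = 1.35e-05). Atf6 had 174, 176 and 166 CPM in the controls and 194, 179 and 183 CPM after co-culture. Every co-cultured sample of Atf6 was above the controls, but the difference did not pass the threshold (log2 fold change 0.11 ± 0.05 SE, adjusted p = 0.0803). Neither secreted UPR protein was called. Manf, a protective factor released under ER stress, had 38.6, 40.4 and 41.8 CPM in the controls and 44, 45.6 and 37.7 CPM after co-culture, with overlap (adjusted p = 0.4). Creld2, a small ER protein induced by ATF6, had 20.4, 18.5 and 22.8 CPM in the controls and 22.2, 26.2 and 22.8 CPM after co-culture, with overlap at the upper control (log2 fold change 0.20 ± 0.088 SE, adjusted p = 0.0541). Creld2 was called as higher with size-factor scaling (adjusted p = 0.0493), and when control replicate 3 (0.0168) or co-cultured replicate 1 was left out (0.039), the 16 alternatives spanning 0.0168 to 0.319.

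Of the 9 ERAD members tested, 1 rose, 4 fell and 4 were not called. The 55.6% called is near the 50.9% of all genes tested, of which 25.9% rose and 25% fell. Herpud1, which organizes the membrane degradation complex (chr8:94386438-94395377, plus strand), had 16.6, 16 and 14.5 CPM in the controls and 9.87, 8.61 and 10.4 CPM after co-culture. It was the largest change of the 33 members, 1.63-fold lower without overlap (log2 fold change -0.71 ± 0.11 SE, adjusted p = 1.92e-06), although its adjusted p against a 1.5-fold change was 0.306. Its partners in the same complex went different ways. Syvn1, the ubiquitin ligase HRD1, had 57.3, 54.8 and 60.9 CPM in the controls and 66.5, 68 and 70.8 CPM after co-culture and rose (log2 fold change 0.25 ± 0.059 SE, adjusted p = 7.94e-04), while Sel1l, the adaptor that stabilizes HRD1, had 298, 295 and 278 CPM in the controls and 267, 260 and 249.5 CPM after co-culture and fell (log2 fold change -0.17 ± 0.049 SE, adjusted p = 0.0055). Their groups did not overlap, and the difference between the changes of Syvn1 and Sel1l was not tested. Os9, a lectin that brings glycoproteins to Sel1l, had 422, 468 and 469 CPM in the controls and 415, 402 and 424 CPM after co-culture, and control replicate 1 lay within the co-cultured range (log2 fold change -0.13 ± 0.051 SE, adjusted p = 0.0316). The call of Os9 was lost without control replicate 2 (adjusted p = 0.155), control replicate 3 (0.0974), co-cultured replicate 1 (0.0649) or co-cultured replicate 2 (0.106), the 16 alternatives spanning 0.00111 to 0.155.

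The mannose-trimming EDEM proteins, which mark glycoproteins for degradation, differed among themselves. Edem1 had 394, 382 and 373 CPM in the controls and 343, 340.4 and 352 CPM after co-culture and fell without overlap (log2 fold change -0.15 ± 0.048 SE, adjusted p = 0.00848), a call that was lost without control replicate 1 (adjusted p = 0.0554, the 16 alternatives spanned 1.78e-04 to 0.0554). Edem2 had 83.9, 82.2 and 81.8 CPM in the controls and 79.8, 75.7 and 73.9 CPM after co-culture, which did not overlap but missed the threshold (log2 fold change -0.11 ± 0.055 SE, adjusted p = 0.0882). It was called as lower with upper-quartile scaling (adjusted p = 0.00509), with library totals alone (0.00694) and in the FPKM table with a pseudocount of 0.1 (0.01) or 1 (0.0102), the 16 alternatives spanning 0.00509 to 0.231. Edem3 was not called, at 125 to 134 CPM over all samples (adjusted p = 0.406). The derlins, membrane proteins of the exit channel, gave no call. Derl1 averaged 140 ± 3.87 CPM in control and 146 ± 6.54 CPM in co-cultured samples (SD, n = 3 per group; adjusted p = 0.34 with edgeR), and Derl2 had 56.5 ± 2.48 and 58.1 ± 2.72 CPM (adjusted p = 0.619). Derl3, which carries an ERSE, was nearly absent, with 4, 4 and 3 counts in the controls and 1, 7 and 5 after co-culture, and was not tested.

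Of the 4 translocon members, 1 rose, 2 fell and 1 was not called. That is 75% called, against 50.9% of all genes tested, in a set of only 4. Sec61a1, the channel subunit, was not called (165, 146 and 159.8 CPM in the controls and 162, 165 and 169 CPM after co-culture; adjusted p = 0.267). Sec61b, the small beta subunit, had 19.1, 18.6 and 20.4 CPM in the controls and 12.5, 17.7 and 17.2 CPM after co-culture, with co-cultured replicate 1 far below the other co-cultured samples (log2 fold change -0.29 ± 0.11 SE, adjusted p = 0.0219). Without that replicate its log2 fold change was -0.15 and its adjusted p 0.231, and the call was also lost without control replicate 3 (0.0864) and with DESeq2 (0.0784), the 16 alternatives spanning 0.00586 to 0.231. Ssr1 and Ssr3, subunits of the translocon-associated TRAP complex, moved in opposite directions. Ssr1 had 176, 187 and 179 CPM in the controls and 165, 167 and 158 CPM after co-culture and fell (log2 fold change -0.15 ± 0.05 SE, adjusted p = 0.014), which was lost without control replicate 2 (adjusted p = 0.0901) or co-cultured replicate 3 (0.0571; the 16 alternatives spanned 3.76e-04 to 0.0901). Ssr3 had 185, 179.5 and 188 CPM in the controls and 209, 215 and 194 CPM after co-culture and rose (log2 fold change 0.16 ± 0.051 SE, adjusted p = 0.00792). The call of Ssr3 was lost with upper-quartile scaling (adjusted p = 0.136), with library totals alone (0.109), in the FPKM table with a pseudocount of 0.1 (0.147) or 1 (0.148), and without control replicate 2 (0.0698) or co-cultured replicate 2 (0.0553), the 16 alternatives spanning 0.00234 to 0.148.

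Chaperones, disulfide enzymes and ERAD genes were set beside each other by their summed levels per gene length, taken as deposited FPKM divided by the scaling factor of each library and given as a description with no test. The 7 HSP70 and HSP90 chaperone genes summed to 535, 550.4 and 574 in the controls and 568, 551 and 524 after co-culture, with overlap between the groups and a ratio of means of 0.99. The 3 lectin chaperone genes summed to 553, 592 and 568 in the controls and 529, 519 and 533 after co-culture, all co-cultured samples being lower (ratio 0.923). Calr made up most of that sum, at deposited control and co-cultured means of 436 and 373 FPKM. The 5 disulfide enzyme genes summed to 438, 449.7 and 465 in the controls and 509, 492 and 483 after co-culture, all co-cultured samples being higher (ratio 1.1). That rise came from P4hb (deposited control and co-cultured means of 152 and 179 FPKM) and Pdia4 (49.6 and 66.5 FPKM). Pdia3, Pdia6 and Ero1lb were lower on the deposited scale, and the median log2 fold change of the 5 was -0.032. The 10 ERAD genes summed to 355, 362 and 361 in the controls and 339, 333 and 342 after co-culture, all co-cultured samples being lower (ratio 0.941). The smaller sets gave ratios of 1.21 for the 3 sensors and transcription factors, without overlap, 1.1 for the 2 secreted proteins and 1.02 for the 4 translocon genes, both with overlap. On the deposited FPKM scale, without that factor, the ratios were 0.946, 0.882, 1.05 and 0.899 for chaperones, lectins, disulfide enzymes and ERAD, and the translocon ratio turned to 0.975. There the disulfide groups nearly touched, at 473.6 in control replicate 3 and 474 in co-cultured replicate 3. Abundant genes weigh most in every sum, so these ratios do not describe each set as a class.

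Control means of FPKM, a level per gene length, spanned 53.7-fold between the highest and the lowest tested member. Calr was the highest, with 422, 449.7 and 435 FPKM in the controls and 366, 364 and 389 FPKM after co-culture, followed by Hspa5 with 251, 259.5 and 268 and 257, 247 and 246 FPKM. Pdia3, P4hb, Canx, Hsp90b1 and Os9 followed at control means of 174 to 114 FPKM. Ern1, Herpud1 and Ero1lb were the lowest of the tested members, at control means of 11.8, 8.22 and 8.11 FPKM, and Derl3 was at 0.14 FPKM. Among the 33 pairs of neighbours in this order, 15 had control ranges that overlapped, so their order is not set by these samples. These pairs included Canx with Hsp90b1 and Hsp90b1 with Os9. The 5 highest members had the same order in both groups apart from Pdia3 and P4hb, which changed places, and no member moved by more than 5 ranks.

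**Figure D3:**
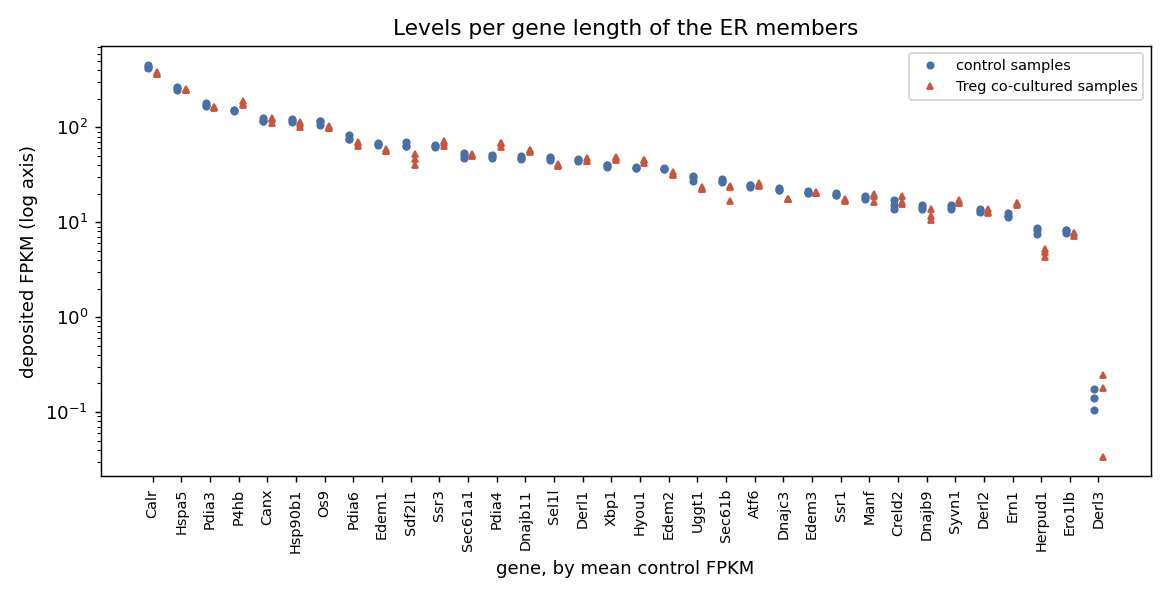
Deposited FPKM of all 34 members in each sample on a log axis, ordered by mean control FPKM (circles, controls; triangles, Treg co-cultured). Calr and Hspa5 are highest in both groups, and Derl3, at a control mean of 0.14 FPKM, lies far below the others.

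Members with an ERSE in the promoter window were called in both directions or not at all. Of the 9 that were tested, Syvn1 rose, Calr, Dnajc3 and Pdia6 fell, and Hspa5, Hsp90b1, Canx, Ero1lb and Creld2 had no call. The log2 fold changes of these 9 had a median of -0.049 and ran from -0.27 to 0.25. The shares called as higher and lower over all genes tested were 25.9% and 25%. The pair with an ERSE-II were Herpud1, at -0.71, and Dnajb11, at 0.32 on the log2 scale, so the same short motif stood in the promoters of the largest fall and of a rise. Promoters of Hyou1, Manf, Atf6, Derl1 and Sec61a1 were not analysed here.

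The PERK and ATF4 branch of the UPR, listed here as 12 genes that are not members, is given beside them. The list joins PERK, its substrate and phosphatase partners with stress-induced transcripts. Whether PERK or another signal lay behind their changes was not tested. In this branch 8 genes rose, 2 fell and 2 had no call. The median of their log2 fold changes was 0.62, against -0.01 over all genes tested, of which 25.9% rose and 25% fell. Against a 1.5-fold change 5 of the 12 were also called, beside 11.3% of all genes tested. Atf4, the transcription factor whose translation is favoured when PERK is active, had 79.1, 81.8 and 90.1 CPM in the controls and 153, 161 and 157 CPM after co-culture, a 1.87-fold rise (log2 fold change 0.91 ± 0.055 SE, adjusted p = 1.62e-15). Trib3, a pseudokinase induced by ATF4 and CHOP, had 5.76, 4.96 and 7.84 CPM in the controls and 16.6, 20.8 and 19.1 CPM after co-culture (log2 fold change 1.59 ± 0.13 SE, adjusted p = 8.88e-11). Nupr1, a stress-induced chromatin protein, had 2.81, 4.33 and 5.13 CPM in the controls and 12.9, 14.9 and 15.3 CPM after co-culture (log2 fold change 1.82 ± 0.15 SE, adjusted p = 1.23e-10). Their groups were well apart, with every co-cultured sample above every control. Ppp1r15b, the constitutive partner of the phosphatase that reverses PERK's action, had 121, 119.8 and 118 CPM in the controls and 173, 170.2 and 163 CPM after co-culture and rose (log2 fold change 0.50 ± 0.05 SE, adjusted p = 3.64e-10). The other 8 genes of the branch were named after their values were seen. Cebpb, a transcription factor of the C/EBP family, rose from 18.2 ± 3.04 to 59.2 ± 8.11 CPM (log2 fold change 1.69 ± 0.12 SE, adjusted p = 1.6e-07). Ddit3, which encodes CHOP, rose from 28.6 ± 3.57 to 49.2 ± 5.46 CPM (n = 3 per group, mean ± SD; adjusted p = 1.89e-07 with edgeR). Eif2ak3, which encodes PERK itself, fell from 31.8 ± 1.4 to 21.2 ± 2.56 CPM (log2 fold change -0.58 ± 0.082 SE, adjusted p = 3.88e-07), and Ppp1r15a, known as GADD34, the stress-induced partner of the same phosphatase, fell from 18.8 ± 0.613 to 11.7 ± 1.55 CPM (log2 fold change -0.68 ± 0.10 SE, adjusted p = 9.96e-07). Eif2s1, which encodes the eIF2 alpha subunit that PERK phosphorylates, rose from 62.2 ± 4.85 to 82.2 ± 2.97 CPM (adjusted p = 1.06e-06). Sesn2, a stress-induced inhibitor of mTORC1 signalling, rose from 58.1 ± 2.08 to 68.1 ± 3.27 CPM (adjusted p = 0.00162), a call that was lost on FPKM values with a pseudocount of 0.1 (0.0511) or 1 (0.0515), the 16 alternatives spanning 0.00125 to 0.0515. The glutathione-degrading enzyme Chac1, at 1.09 and 1.87 CPM, and the transcription factor Atf3, at 305 and 282 CPM, were not called (adjusted p = 0.058 and 0.0629). Chac1 was called as higher under 4 of the 16 alternatives (0.00919 to 0.304), among them without control replicate 3 (0.00919) or co-cultured replicate 1 (0.0366). Atf3 was called as lower under 6 (0.00256 to 0.234), among them without control replicate 1 (0.036) or co-cultured replicate 1 (0.0307).

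**Figure D4:**
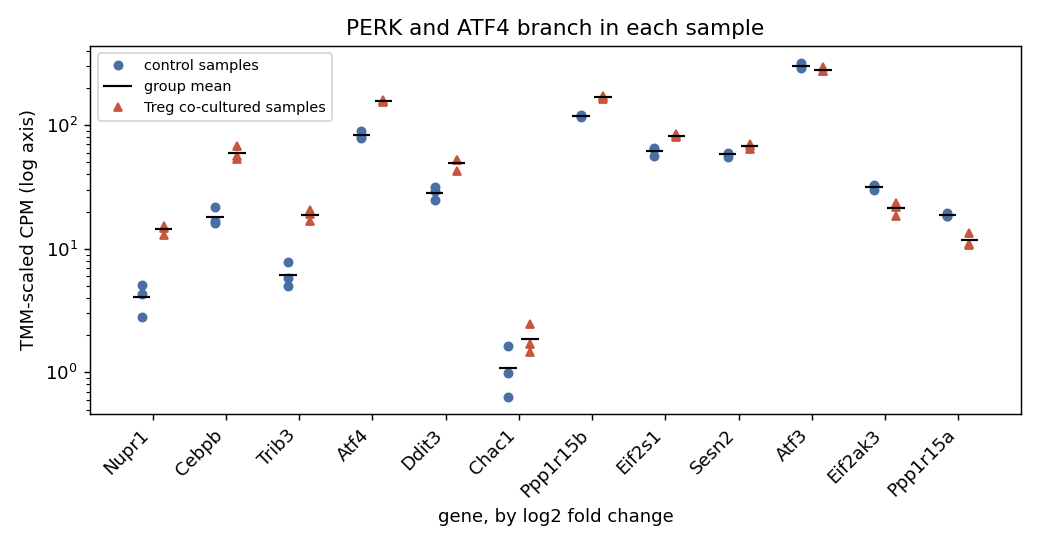
TMM-scaled CPM of the 12 genes of the PERK and ATF4 branch in each sample on a log axis, ordered by log2 fold change (circles, controls; triangles, Treg co-cultured; bars, group means). The co-cultured samples lie above the controls from Nupr1 to Ddit3 and below them at Eif2ak3 and Ppp1r15a, while those of Chac1 and Atf3 overlap.

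The rest of the folding and degradation machinery was also mixed, and its counts stand beside the 25.9% of all genes tested that rose and the 25% that fell. Of 8 genes for the processing of ATF6 and for related ER-anchored factors, 4 rose and 2 fell (median log2 fold change 0.07). Mbtps1, the site-1 protease that cuts ATF6, fell from 97.6 ± 3.43 to 73.6 ± 1.21 CPM (adjusted p = 1.3e-07), and the ATF6-like factor Creb3l2 from 44.7 ± 2.49 to 31.4 ± 0.698 CPM (adjusted p = 1.32e-07), whereas Creb3l1 rose from 6.21 ± 0.618 to 11.3 ± 0.234 CPM (adjusted p = 5.18e-07) and Nfe2l1, an ER-anchored regulator of proteasome genes, from 287 ± 2.85 to 372 ± 17.3 CPM (adjusted p = 8.14e-08). Of 14 further disulfide enzymes, 4 rose and 5 fell (median -0.065). The 4 with the smallest adjusted p all fell. They were Prdx4, an ER peroxiredoxin (49.4 ± 5.54 to 28.3 ± 3.1 CPM, adjusted p = 2.36e-08), the sulfhydryl oxidase Qsox1 (42.9 ± 4.3 to 29.3 ± 0.417 CPM, 1.07e-07), Erp29 (177 ± 6.21 to 136 ± 9.01 CPM, 3.46e-07) and the membrane-bound thioredoxin Tmx4 (57.8 ± 1.19 to 43.9 ± 2.38 CPM, 2.4e-06). Of 20 other folding factors, 2 rose and 10 fell (median -0.21). Tapbp, which encodes tapasin, the class I peptide-loading chaperone, rose from 569 ± 30.9 to 1146 ± 104 CPM (log2 fold change 1.01 ± 0.059 SE, adjusted p = 3.39e-14). The prolyl isomerase Fkbp9 fell from 58.4 ± 3.62 to 30.1 ± 1.18 CPM (log2 fold change -0.95 ± 0.067 SE, adjusted p = 7e-14), and Cnpy2 and the calcium-binding Rcn2 fell 1.4-fold and 1.3-fold.

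In the next lists, 56% of the further ERAD genes, 46.2% of the oligosaccharyltransferase and trimming genes and 45.5% of the other translocation genes were called, close to the 50.9% of all genes tested. Of 25 further ERAD genes tested, 8 rose and 6 fell (median log2 fold change 0.016). The ubiquitin ligase Rnf139 rose from 24 ± 0.946 to 34.6 ± 1.24 CPM (adjusted p = 2.5e-07), the ubiquitin-conjugating enzyme Ube2j2 from 35 ± 1.37 to 47.5 ± 3.13 CPM (1.6e-06), Erlin1, which targets sterol-regulated and calcium channel proteins for degradation, from 22.3 ± 1.76 to 30.7 ± 1.12 CPM (7.76e-06) and the rhomboid protease Rhbdd1 from 41 ± 1.14 to 51.9 ± 2.07 CPM (2.97e-05). Of the 6 that fell, fewer were called without control replicate 2 (3) or control replicate 3 (3). Of 13 genes of the oligosaccharyltransferase, which adds glycans to new chains, and of glycan trimming, 2 rose and 4 fell (median 0.0062). Its subunits Dad1 (43.1 ± 3.36 to 25.8 ± 1.52 CPM, adjusted p = 2.96e-10), Tusc3 (36.5 ± 0.276 to 25.1 ± 1.07 CPM, 9.54e-08) and Rpn2 (246 ± 6.69 to 211 ± 8.95 CPM, 4.35e-04) fell, and Mogs, the first glucosidase of trimming, rose (35.3 ± 2.8 to 45.2 ± 1.14 CPM, 4.9e-05). Of 22 other translocation genes, 4 rose and 6 fell (median -0.085), and with upper-quartile scaling 11 and with library totals alone 10 fell. Serp1, a small translocon-associated stress protein, rose from 271 ± 4.5 to 357 ± 15.4 CPM (2.08e-08), Srpr, the signal recognition particle receptor, from 127 ± 5.37 to 158 ± 3.52 CPM (3.38e-06) and Srp68 from 72.5 ± 0.515 to 92.1 ± 0.984 CPM (1.86e-06), and the signal peptidase subunit Sec11c fell from 49 ± 3.58 to 34.2 ± 3.99 CPM (2.1e-06). Adjusted p values in these lists are from edgeR over all genes tested.

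**Figure D5:**
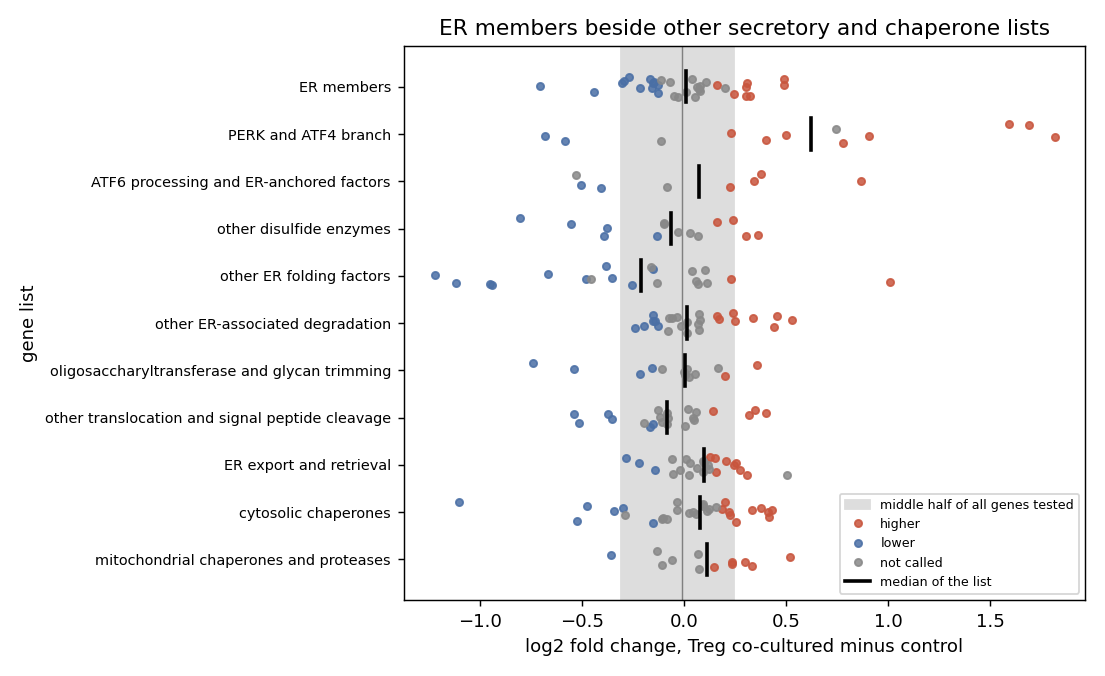
Each point is 1 tested gene at its log2 fold change, co-cultured minus control, by list (colours, call at an adjusted p of 0.05; black bars, list medians; grey band, quartile range of all genes tested). The median of the PERK and ATF4 branch is 0.62 and lies outside the band, and that of the ER members is 0.0113.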

How the data were processed

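RNA of 6 microglia samples was analysed, 3 per group. Per the submitters' processing notes, reads were aligned to GRCm38 with STAR and counted with HTSeq 0.11.2. The sources used here do not name the annotation release or strand setting. Values deposited by the authors are whole-number counts of reads for each gene, and FPKM values, which are counts per gene length and library total. The count sheet keyed by gene identifier and name was used, and 27 names that had become dates were restored through the identifiers. The labels' protocols describe amplified cDNA and name no molecular identifiers, so errors cover counting and sample spread only.

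Genes were kept by filterByExpr, libraries scaled by TMM, and groups compared with edgeR 4.0.16 (R 4.3.3), using a robust quasi-likelihood fit and the two-sided F-test with group as the only term, with Benjamini-Hochberg adjustment over 13274 genes. A gene was called, and written as risen or fallen, at an adjusted p under 0.05. Intervals are 95%. The members, lists and alternatives were chosen with earlier results of these data known, so no list test was made. All 34 members are described, and up to 4 genes with the smallest adjusted p of each other list are named, with markers named by abundance; the remaining 8 genes of the PERK and ATF4 branch and 2 astrocyte markers were added after their values were seen; 1 marker list is not reported here. Alternatives used DESeq2 1.42.0, limma 3.58.1 (voom, and log2 of FPKM plus 0.1 or 1 for genes with at least 0.1 FPKM in 3 samples), other scalings, no filter, the other count sheet, a test against 1.5-fold, a replicate block and each replicate left out. In a test on simulated counts of this comparison (13099 genes), 98.5% of 67 genes changed 1.5-fold, 100% of 67 changed 2-fold and 100% of 66 changed 4-fold were recovered, and 9 unchanged genes were called. A minimum simulated mean of 5 CPM was set. No change under 1.5-fold was planted, so recovery of the smaller changes of most members was not tested. Coordinates are from GENCODE M21 (GRCm38), counted from 1, and promoters from RefSeq (GRCm38.p6). Protein sequences were not used here.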

Additional observations from a re-analysis of the deposited data

How the results depend on the processing

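Over all genes tested, 3432 were higher and 3320 lower (50.8% higher). With upper-quartile scaling 2731 were higher and 4090 lower (40% higher), with library totals alone 2774 and 3997 (41%), and on FPKM values 2589 and 3698 with a pseudocount of 0.1 and 2602 and 3721 with 1 (both 41.2%). Against a 1.5-fold change 809 and 691 were called, and the ER members called higher and lower, and those of the chaperone, lectin, disulfide and ERAD groups, came to 0. The ER members called as higher and lower, 8 and 12, became 7 and 14 both with library totals alone and with upper-quartile scaling, 7 and 13 with both FPKM settings, 9 and 11 with size-factor scaling, 8 and 9 with DESeq2, and 8 and 12 with limma-voom, no filter and the other count sheet. That sheet holds equal counts for 35142 of 35161 shared gene names, so its result could hardly differ, and the 561 values below include it. Leaving out 1 replicate at a time gave 7 to 9 higher and 8 to 11 lower, and 1 to 2 lectin members called. The median log2 fold change of the ER members went from 0.0113 to -0.061 under upper-quartile scaling, -0.054 when only library totals were used, and -0.041 and -0.038 on FPKM values with pseudocounts of 0.1 and 1. Over all genes tested the medians under these settings were -0.082, -0.076, -0.072 and -0.045. Of 561 values of single members under the alternatives, 505 kept direction and call, 47 lost the call (20 of them against a 1.5-fold change), 9 gained one and 0 reversed a call; for the genes named from the other pathway lists, the whole PERK and ATF4 branch included, 768 of 816 kept both, 38 lost the call and 10 gained one. Sign changes between values not called in either setting numbered 19 and are not counted as reversals. Of the 10 highest members by FPKM, 8 were also among the 10 highest by CPM. Samples with the same replicate number showed no visible shared deviation (correlations of deviations 0.0214, -0.0233 and 0.00438), which cannot exclude that cultures were paired. With the replicate number as a block, 8 members were higher and 12 lower, and 3448 and 3307 of all genes tested. Not every sample correlated best with its own number. Depth limits Derl3, whose counts were at most 7 in a library. The promoter table holds 1 window per start, so no other window was run. Causes of the differences between settings were not tested.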

Other observations

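Chaperones outside the ER and the genes of ER export are given here beside the 60.6% of ER members called and the 50.9% of all genes tested that were called. Of 30 cytosolic chaperone genes tested, 10 rose and 6 fell (median log2 fold change 0.075). Hspa8, the constitutive cytosolic HSP70, fell from 1044 ± 46 to 822 ± 11.5 CPM (n = 3 per group, mean ± SD; adjusted p = 5.71e-07 with edgeR). The HSP90 activator Ahsa1 rose from 73 ± 2.64 to 97.5 ± 3.13 CPM (adjusted p = 9.88e-08), the HSP70 and HSP90 organizer Stip1 from 92.1 ± 5.14 to 119 ± 4.79 CPM (7.7e-07) and the J-domain protein Dnaja1 from 103 ± 2.46 to 137 ± 12.7 CPM (4.6e-07). Of 12 mitochondrial chaperone and protease genes, 6 rose and 1 fell (median 0.11). Hspa9, the mitochondrial HSP70, rose from 225 ± 6.12 to 322 ± 13.4 CPM (adjusted p = 1.08e-10), the protease subunit Spg7 from 54.3 ± 1.56 to 66.7 ± 1.56 CPM (6.54e-05), the J-domain protein Dnaja3 from 33.3 ± 2.93 to 42 ± 2.21 CPM (2.3e-04) and the inner membrane protease Yme1l1 from 117 ± 3.47 to 137 ± 2.54 CPM (2.42e-04). The mitochondrial share of counts was lower in the same co-cultured libraries, 0.636% to 0.772% against 1.32% to 1.38%, and its part in these values was not tested.

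Of 24 genes of transport between the ER and the Golgi, 8 rose and 3 fell (median 0.095). The cargo receptor Lman1 rose from 96.8 ± 1.43 to 115 ± 2 CPM (adjusted p = 1.08e-04), the COPII coat subunit Sec23b from 62.4 ± 2.08 to 75.5 ± 2.92 CPM (1.57e-04) and Preb, which starts COPII assembly, from 52.8 ± 2.39 to 65.4 ± 4.65 CPM (1.08e-04). The related lectin Lman2 fell from 240.2 ± 1.72 to 197 ± 12.4 CPM (1.81e-05). The number called higher in this list was 5 both under upper-quartile scaling and when only library totals were used, 4 and 4 in the FPKM table with pseudocounts of 0.1 and 1, and 5 without co-cultured replicate 1. The number of mitochondrial genes called lower was 2 under upper-quartile scaling, library totals and both FPKM settings.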
